A study of Mus musculus with 16 samples.

Results

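In wild-type mouse embryonic stem cells, ribosome footprints were compared with the total RNA of the same cultures, gene by gene, to show which messages were most and least densely occupied by ribosomes. Genes were kept when they averaged at least 50 normalised reads in the WT footprint libraries and at least 50 in the WT total RNA libraries. This left 10861 of the 21977 gene names, holding 99.6% and 99.5% of the footprint reads and 99.0% and 99.1% of the RNA reads of cultures WTex1 and WTex2. The rule did not use the ratio of one assay to the other.

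The series holds ribosome-protected fragments (RPF, or footprints) and total RNA from 8 cultures of embryonic stem cells, all grown with the cytokine LIF on gelatin. The 3 Nat1+/- lines (A7, B4 and C1, heterozygous) and the 3 Nat1-/- lines (B12, B2 and C3, null) are used here only to set the WT ratios beside them. The WT cultures WTex1 and WTex2 are replicates of one line, RF8, so p-values measure the spread between replicates of that line. Nat1 is listed in the files as Eif4g2, a relative of the scaffold factor eIF4G that cannot bind the cap-binding protein eIF4E.

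In ribosome profiling, a nuclease digests the RNA that ribosomes do not cover, and the short protected pieces are sequenced. The number of footprints on a message depends on how much of that message there is and on how many ribosomes it carries, so the ratio of footprints to RNA reads is read as ribosome loading, often called translational efficiency. The ratio says nothing of how fast those ribosomes move. In embryonic stem cells, translation is known to be low overall and to change with differentiation.

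The WT libraries held 23.8 and 20.0 M RPF reads and 42.6 and 33.6 M total RNA reads (M, 1e+06 reads) in WTex1 and WTex2. The deposited values are reads divided by a size factor that was set within each assay, so the zero of the ratio has no meaning of its own. Each culture's log2((RPF + 1)/(total RNA + 1)) was therefore centred on its median over the 10861 genes, which lay at -0.35 in WTex1 and -0.33 in WTex2. A positive ratio below means more footprints per RNA read than the median gene, on the log2 scale, and a gene is called when the limma adjusted p over all genes is under 0.05. Stem cell identity markers were present in both assays. Pou5f1, the factor Oct4, had 17038 and 16894 normalised reads in RPF and 21346 and 22764 in total RNA, and Nanog had 5624 and 8527 in RPF and 3258 and 4416 in total RNA.

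Footprints followed RNA levels closely but not evenly. Across genes, log2 RPF and log2 total RNA had a Pearson correlation of 0.874 in WTex1 and 0.899 in WTex2, over 10861 genes that are not independent of each other. The centred ratio spanned 7.46-fold between the 5th and the 95th percentile of genes and 2.28-fold between the 25th and the 75th percentile, and 8146 genes (75%) lay within 2-fold of the median gene. The cultures gave nearly the same ratios, with a correlation of 0.951 across genes and a median difference of 0.18 between them. Of the genes, 4920 were above the median in both cultures, 4920 were below it in both, and 1020 were on different sides. The median standard error of a ratio was 0.17.

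At an adjusted p under 0.05, 6497 genes (59.8%) were called, 3208 higher (29.5%) and 3289 lower (30.3%) than the median gene. Of these, 1156 (10.6%) were higher by 2-fold or more and 1554 (14.3%) were lower by 2-fold or more. The split follows from the centring. Without it, 1813 genes were called higher and 4864 lower, and with equal library sums 2075 were called higher and 4461 lower. The fit behind the calls did not pair the assays by culture, so a gene that shifts together in both assays gets a wider standard error. With the culture as a block, 8002 genes were called, 4008 higher and 3994 lower. All directions below are relative to the median gene. Class counts from the fit of all WT libraries are to be read against the 29.5% and 30.3% of all genes. Class counts given without a library come from fits that called fewer genes in all, so these shares do not apply to them. Such a fit holds a single library of the assay concerned, so a change in a class count is not read as a change of the class. A drop in such a count can come from the general loss of calls, and the part of the class in it was not tested.

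**Figure D1:**
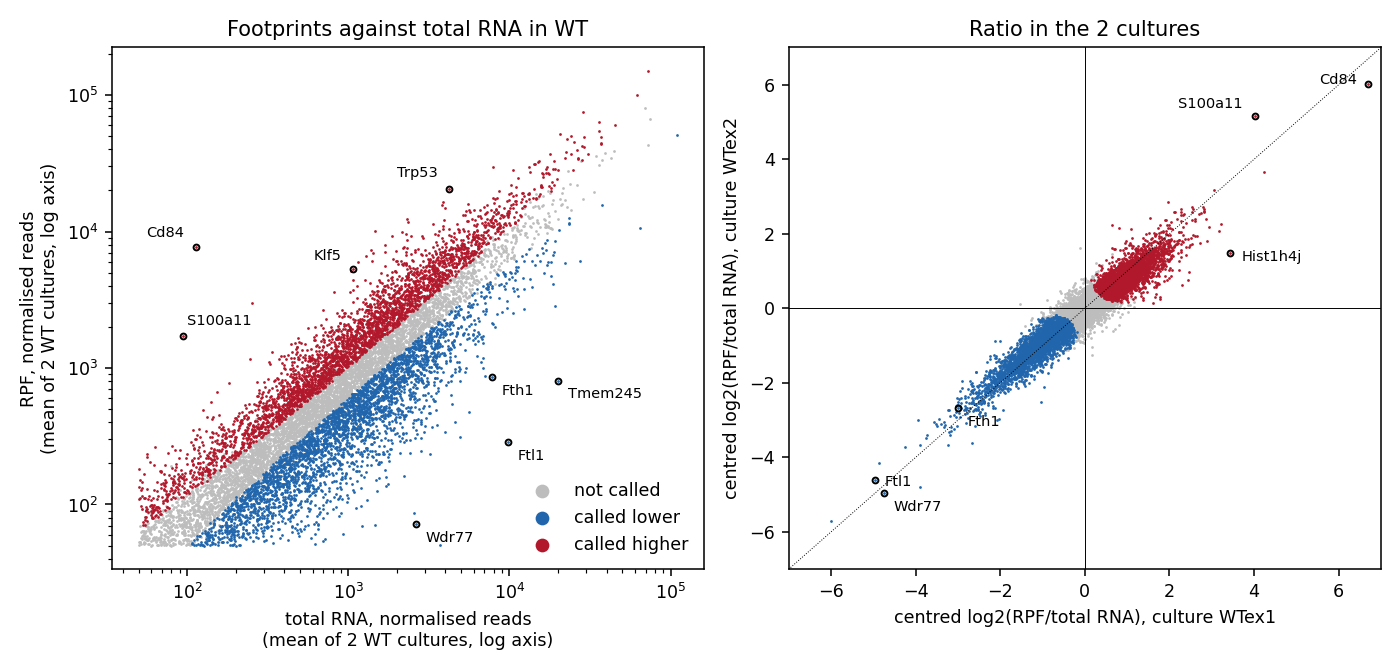
Left, mean RPF against mean total RNA of both WT cultures for the 10861 genes, in normalised reads on log axes; right, the centred log2 ratio in WTex2 against that in WTex1, with a dotted line of equality. Red points are genes called higher, blue points genes called lower and grey points genes not called; the ratios of both cultures lie along the line (correlation 0.951), with Cd84 at the top and Wdr77 and Ftl1 near the bottom.

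The messages with the fewest footprints for their RNA included both ferritin subunits, which store iron. Ftl1, the light chain, had 220 and 351 normalised reads in RPF, against 8830 and 10801 in total RNA of WTex1 and WTex2. Its centred ratio was -4.79 ± 0.22 (log2, SE, n = 2 libraries per assay; adjusted p = 9.0e-06). Fth1, the heavy chain, had 823 and 889 in RPF and 8429 and 7151 in total RNA, a ratio of -2.84 ± 0.15 (adjusted p = 9.0e-06). In WTex1 and WTex2 the ratios were -4.97 and -4.61 for Ftl1 and -3.0 and -2.68 for Fth1, far below the median gene in both cultures. Ferritin messages are known to carry an iron-responsive element near their cap, to which iron regulatory proteins bind when iron is low. Both genes have processed pseudogene copies, and the sources used here do not give how reads matching several places were counted.

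Of the 9 kept genes of the iron list, 4 were called lower, namely Ftl1, Fth1, Epas1 and Ireb2, and 2 were called higher. Epas1, a hypoxia-inducible factor with an iron-responsive element in its leader, had a ratio of -0.69 ± 0.22, and its call was lost without the WTex1 total RNA library. Alas1, the first enzyme of haem synthesis outside red cells, had 1670 and 2151 in RPF and 683 and 1025 in total RNA, a ratio of 1.52 ± 0.21. Aco1, which is iron regulatory protein 1 when it lacks its iron-sulphur cluster, stood at 0.81 ± 0.16. Tfrc, the transferrin receptor that takes up iron, had 12687 and 13366 in RPF and 12590 and 13484 in total RNA, and its ratio of 0.34 ± 0.16 was not called.

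Polyamine genes were the class with the lowest median ratio of the 33 classes that had 3 or more kept genes. Of the 10 kept members, 8 were called lower and 1 higher, with a median of -0.89, and 6 were called lower without the WTex1 total RNA library. Odc1, ornithine decarboxylase, which makes the first polyamine, had 4444 and 4991 in RPF and 18914 and 17407 in total RNA, a ratio of -1.60 ± 0.16. Oaz1, the antizyme that binds Odc1 and is made through a polyamine-dependent frameshift, had 1092 and 914 in RPF and 6771 and 6959 in total RNA, a ratio of -2.44 ± 0.15. Amd1, which supplies aminopropyl groups and whose leader carries a regulatory upstream reading frame, had 247 and 243 in RPF and 1721 and 1203 in total RNA, a ratio of -2.21 ± 0.19. These 3 genes act at successive or opposing steps of the same pathway. In WTex1 and WTex2 the ratios were -1.74 and -1.47 for Odc1, -2.28 and -2.60 for Oaz1 and -2.44 and -1.97 for Amd1, all below the median gene. The one member called higher was Srm, spermidine synthase, at 0.56 ± 0.17, and its call was lost without the WTex1 total RNA library or without the WTex1 RPF library. The polyamine genes together took 0.09% and 0.08% of RPF reads and 0.22% and 0.19% of total RNA reads.

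**Figure D2:**
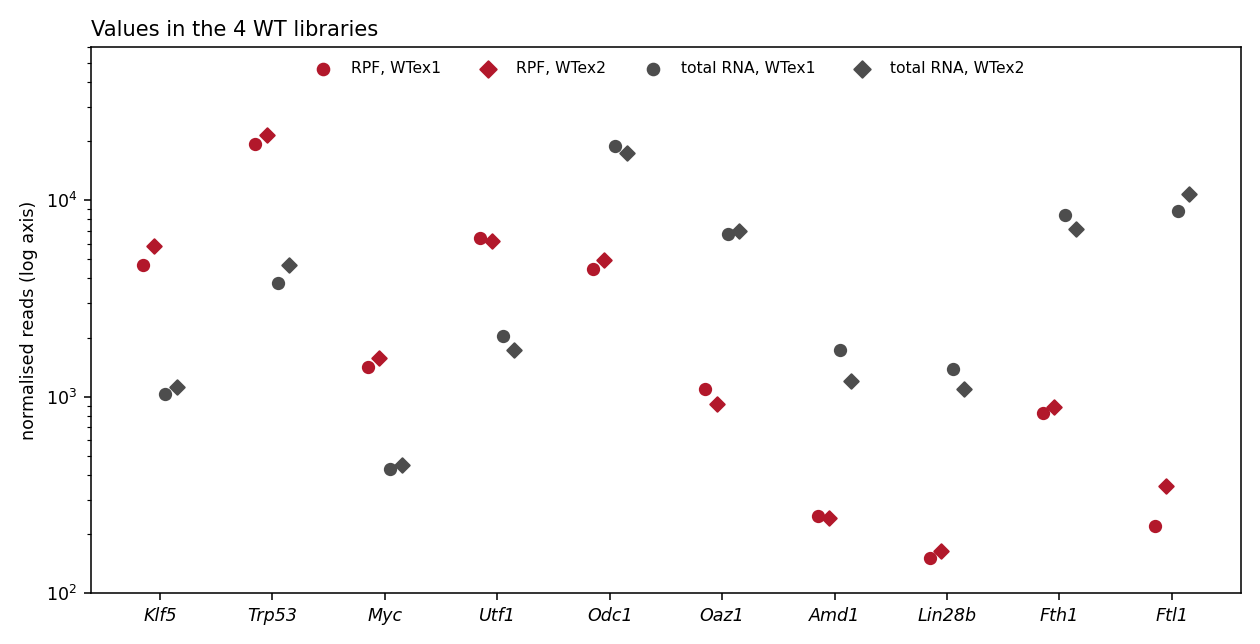
Normalised reads (log axis) of 10 genes in the 4 WT libraries, RPF in red and total RNA in grey, with circles for WTex1 and diamonds for WTex2. The assays were scaled separately, so gaps are read between genes: red points lie above grey ones for Klf5, Trp53, Myc and Utf1 and below them for Odc1, Oaz1, Amd1, Lin28b, Fth1 and Ftl1, with the widest gap at Ftl1.

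Outside these classes, Wdr77, a partner of the arginine methyltransferase Prmt5, was the lowest of the named protein-coding genes, with 80.8 and 62.0 normalised reads in RPF, against 2810 and 2464 in total RNA (ratio -4.85). The lowest ratio of all kept genes, at a protein-coding gene that is not among the named ones, was -5.84. Lypla1, a thioesterase that removes palmitate from proteins, stood at -4.51. Tmem245 had 1029 and 584 in RPF, against 19607 and 20566 in total RNA, a ratio of -4.35. Tmem245 is annotated over a microRNA and small nucleolar RNAs, and Zbtb37, at -3.98, over the non-coding RNA Gas5, so reads of those RNAs cannot be told apart from reads of the named genes here. The other genes among the 12 lowest were Cmtm4, Unc13d, Uhmk1, Cox7a2l, Metrn, Usp31 and Zbtb26 with Ftl1, of which all but Ftl1 stood between -3.62 and -3.30. The adjusted p of each of the 12 lowest and 12 highest genes was at most 8.8e-05.

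The highest ratio of the named genes was at Cd84, a surface receptor of blood cells. In the mutant cultures its RPF values ran between 1602 in C3 and 27747 in B12, with total RNA between 161 and 212, against 10108 and 5315 in RPF and 123 and 102 in total RNA of WT. The WT ratio was 6.36 ± 0.27, and across the cultures the RPF reads at Cd84 varied far more than its RNA. The annotation places a long non-coding RNA, Gm51686, over it. Whether these RPF reads come from the Cd84 message was not tested, and the values are given as listed under that name. S100a11, a small calcium-binding protein, had 1597 and 1811 in RPF and 126 and 62.9 in total RNA, a ratio of 4.58. Atp6v0c, which forms the proton-conducting ring of the vacuolar ATPase, had 2908 and 3104 in RPF and 196 and 311 in total RNA, a ratio of 3.94.

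Trp53, the tumour suppressor p53, had 19391 and 21560 in RPF and 3788 and 4661 in total RNA, a ratio of 2.62. Klf5, a Krüppel-like factor needed for self-renewal, had 4694 and 5875 in RPF and 1036 and 1116 in total RNA, a ratio of 2.63 ± 0.16. Myc, at 1414 and 1572 in RPF and 430 and 451 in total RNA, stood at 2.1 ± 0.14. The ratios of WTex1 and WTex2 were 2.71 and 2.54 for Trp53, 2.53 and 2.73 for Klf5 and 2.07 and 2.13 for Myc, all above the median gene. Snrpd3, a core protein of spliceosomal particles, had 12355 and 12534 in RPF and 2260 and 2379 in total RNA, a ratio of 2.77. Uqcrq, Gng3, Mt2, Ubl5, Ifitm3 and C1qbp made up the rest of the 12 highest, from 2.46 to 2.72. Uqcrq, Gng3, Ubl5 and C1qbp each overlap another annotated gene, so the reads of each pair cannot be told apart without strand. The immediate early and short-lived list as a whole was mixed, with 11 of 28 called higher and 6 lower (median 0.22, or -0.12 without centring), and 5 called higher without the WTex2 RPF library or 6 without the WTex1 total RNA library. Jund, a subunit of the AP-1 factor, stood at the other end of it at -1.57 ± 0.16.

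The transcription factors and RNA-binding proteins of pluripotency stood on both sides of the median gene, from -2.62 to 2.09 in the core list and from -1.51 to 2.63 in the naive list. Of the 17 core genes, 7 were called higher and 4 lower (median 0.30), and of the 23 naive-state genes, 9 were called higher and 7 lower (median 0.43). The core median was -0.04 without centring. Pou5f1 and Sox2, the partners at many stem cell enhancers, had ratios of -0.04 ± 0.17 and -0.32 ± 0.17 and were not called. Nanog stood at 1.21 ± 0.22, and Utf1, a chromatin protein of pluripotent cells, at 2.09 ± 0.15 with 6463 and 6191 in RPF against 2041 and 1735 in total RNA.

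L1td1, an RNA-binding protein of stem cells, and Dnmt3l, the catalytically inactive partner of the de novo DNA methyltransferases, stood at 1.49 ± 0.21 and 1.5 ± 0.14. The 4 core genes called lower were Lin28b, Trim71, Fgf4 and Lin28a. Lin28b, which blocks let-7 maturation, had 151 and 165 in RPF and 1387 and 1101 in total RNA, a ratio of -2.62 ± 0.17. Trim71, a let-7 target that represses messages, had 4107 and 4124 in RPF and 18479 and 18801 in total RNA, a ratio of -1.84 ± 0.15. Fgf4, the growth factor that primes these cells for differentiation, stood at -1.39 ± 0.19. In the naive list, Tet1, Tfcp2l1 and Klf4 stood at -1.51 ± 0.24, -1.44 ± 0.23 and -1.17 ± 0.16, and Dppa3 at 1.27 ± 0.15. Klf4 and Klf5, related factors with overlapping roles, thus lay on opposite sides of the median gene, 410 and 526 against 1263 and 1384 normalised reads of RPF and total RNA for Klf4. The count of core genes called higher was 5 without the WTex2 RPF library or without the WTex1 total RNA library.

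**Figure D3:**
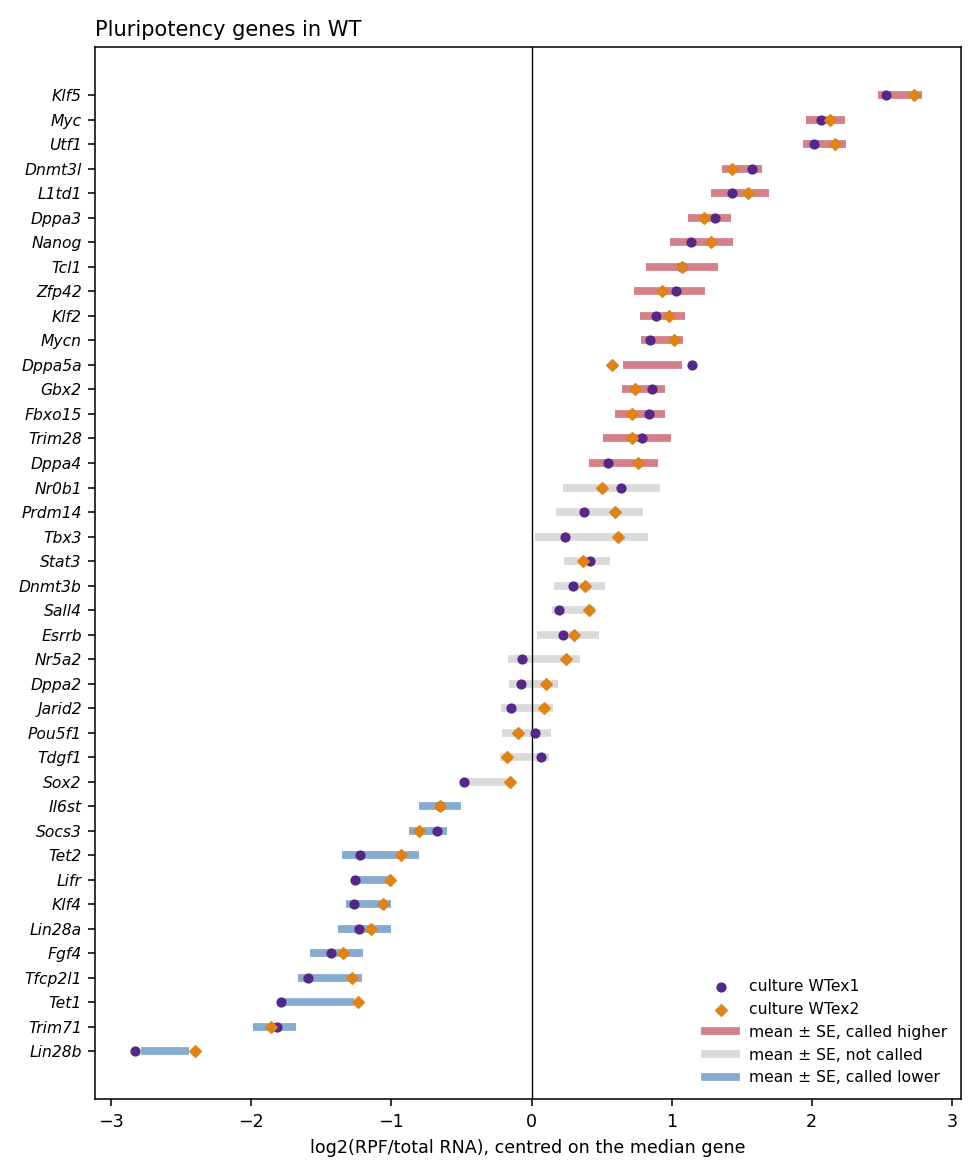
Centred log2 ratio of RPF to total RNA of the core and naive pluripotency genes in WTex1 (circles) and WTex2 (diamonds), with bars of mean ± SE coloured by the call. Klf5, Myc and Utf1 stand at the top, Lin28b and Trim71 at the bottom, and Pou5f1 near 0.

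Components of the RAS and MAP kinase cascade, which carries the Fgf4 signal into the cell, had few footprints for their RNA. Of 35 kept members, 20 were called lower and 3 higher (median -0.53), and 11 were lower by 2-fold or more. Map3k2, a kinase at the top of MAP kinase chains, had 117 and 136 in RPF and 745 and 764 in total RNA, a ratio of -2.23 ± 0.16. Spred1, a RAS inhibitor, stood at -2.11 ± 0.17. Map3k3 stood at -1.85 ± 0.14 with 581 and 555 in RPF against 2663 and 2551 in total RNA. Sos2, an exchange factor for RAS, and Nf1, which switches RAS off, were also called lower, at -1.56 and -1.39. Mapk3, the kinase ERK1 at the end of the chain, was called higher at 0.75 ± 0.14.

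In the machinery of respiration, nuclear genes had a higher median than the mitochondrial genes that were kept. Of 77 nuclear-encoded respiratory chain genes, 67 were called higher and 1 lower (median 1.03), and they took 2.01% and 1.92% of RPF reads and 1.07% and 1.28% of total RNA reads. Cox6b1, a subunit of cytochrome c oxidase, had 7683 and 7617 in RPF and 1824 and 2630 in total RNA, a ratio of 2.15 ± 0.19. Atp5j, a coupling factor of the ATP synthase, stood at 2.44 ± 0.17 with 7458 and 6805 in RPF against 1887 and 1471 in total RNA. The one member called lower was Cox7a2l, which takes part in the assembly of respiratory supercomplexes, with 263 and 203 in RPF and 3186 and 3285 in total RNA (ratio -3.46 ± 0.17). Of the 13 mitochondrially encoded messages, 8 were kept, of which 3 were called higher and 2 lower (median -0.01). The others, mt-Nd3, mt-Nd4l, mt-Co2, mt-Co3 and mt-Atp6, fell short of the minimum. Why they did was not tested, so the class median covers only a part of these messages. By reads, the 13 messages together took 0.22% and 0.12% of RPF and 0.60% and 0.34% of total RNA in WTex1 and WTex2. Their share of footprints was thus below their share of RNA, although the class median lay near 0. These messages are read by mitochondrial ribosomes, whose footprints can differ in length from those of cytosolic ribosomes. The lowest, mt-Co1, had 13647 and 7716 in RPF and 80480 and 49009 in total RNA, a ratio of -2.27 ± 0.32, and the highest, mt-Nd6, the one encoded on the other strand, stood at 2.12 ± 0.19. Without the WTex1 RPF library or without the WTex2 total RNA library, 1 was called higher.

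Proteasome subunits, which degrade ubiquitin-tagged proteins, were called higher in 35 of 40 cases and lower in 1 (median 1.04). Psmb2, a subunit of the catalytic core, had 6240 and 5997 in RPF and 1727 and 2250 in total RNA, a ratio of 1.98 ± 0.17. The exception was Psme4, an activator that caps the core, at -0.68 ± 0.16 with 8280 and 8127 in RPF against 17237 and 16069 in total RNA. All 7 kept subunits of the CCT chaperonin, which folds actin and tubulin, were called higher, in a narrow range from 0.66 ± 0.18 for Cct2 to 1.13 ± 0.19 for Cct8. Of 16 actin, tubulin and associated genes, 12 were called higher and 1 lower (median 1.0). Pfn1, the actin-binding profilin, had 33437 and 26208 in RPF and 8545 and 7284 in total RNA, a ratio of 2.25 ± 0.20.

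Among chaperones of the heat shock families and the endoplasmic reticulum, 19 of 26 were called higher and 2 lower (median 0.65). Hspa5, the main chaperone of the endoplasmic reticulum, stood at 1.5 ± 0.22 and Pdia3, a disulphide isomerase, at 1.64 ± 0.17. Xbp1, a transcription factor of the unfolded protein response, was called lower at -0.68 ± 0.14. Glycolysis enzymes were called higher in 15 of 19 cases and lower in 1 (median 0.78), and in 9 without the WTex2 RPF library or without the WTex1 total RNA library. Gapdh had 21125 and 27903 in RPF and 10542 and 12185 in total RNA, a ratio of 1.44 ± 0.20, and Pgam1, a phosphoglycerate mutase, was the one called lower, at -1.48 ± 0.17.

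The genes of protein synthesis itself divided by role. Cytosolic aminoacyl-tRNA synthetases, which charge tRNAs, were called higher in 22 of 23 cases (median 0.80), and in 13 without the WTex2 RPF library or without the WTex1 total RNA library. Rars, the arginine enzyme, had 11426 and 12614 in RPF and 4911 and 6191 in total RNA, a ratio of 1.46 ± 0.17. Their mitochondrial counterparts had no common level, with 5 of 17 called higher and 6 lower (median -0.03), and 2 called lower without the WTex2 total RNA library. Mitochondrial ribosomal proteins were called higher in 56 of 78 cases and lower in 3 (median 0.77), with Mrpl22 at 1.83 ± 0.15 and Mrpl33 at -1.52 ± 0.16.

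Initiation factors were called higher in 29 of 44 cases and lower in 6 (median 0.69). Eif5b, which joins the ribosomal subunits, had 5891 and 8855 in RPF and 2388 and 2836 in total RNA, a ratio of 1.81 ± 0.20. Eif3k and Eif3g, subunits of the factor that holds the small subunit, stood at 1.67 ± 0.19 and 1.62 ± 0.16. The members called lower were Eif2s3x, Eif4a2, Eif4g2, Eif4ebp2, Eif4b and Eif1a. Eif2s3x, a subunit of the factor that brings the initiator tRNA, had 2169 and 2068 in RPF and 6585 and 5566 in total RNA, a ratio of -1.17 ± 0.15. Eif4g2, the gene the study disrupts, had 17666 and 13862 in RPF and 47932 and 26985 in total RNA, a ratio of -0.86 ± 0.28 (adjusted p = 0.026), and its call was lost without the WTex2 RPF library or without the WTex1 total RNA library.

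Cytosolic ribosomal proteins, whose messages begin with a terminal oligopyrimidine (TOP) tract through which mTOR controls their translation, sat near the median gene. Of the 50 large-subunit members, 18 were called higher and 5 lower (median 0.18), and of the 33 small-subunit members, 9 were called higher and 8 lower (median 0.12). These counts changed when single libraries were left out, as did those of all genes, and the part of the class in this was not tested. The large-subunit count of genes called higher was 6 without the WTex1 RPF library and 7 without the WTex1 total RNA library, and the lower count then stood at 5 and 8. The small-subunit count of genes called higher was 5 and 4 in those settings, and its lower count was 5 without the WTex2 RPF library and 3 without the WTex2 total RNA library. In WTex1 the medians were 0.27 and 0.21 for the large and small subunit, and in WTex2 they were 0.05 and -0.08. With uncentred values the medians of both subunits were below 0, at -0.16 and -0.22.

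Single ribosomal proteins differed by far more than the class did. Rplp0, a stalk protein, had 5917 and 6204 in RPF and 25587 and 29076 in total RNA, a ratio of -1.83 ± 0.17. Rpl13a had 554 and 307 in RPF and 2995 and 3094 in total RNA, a ratio of -2.54 ± 0.25. At the other end, Rpl29 had 4810 and 4848 in RPF and 1586 and 1905 in total RNA, a ratio of 1.82 ± 0.15, and Rps26 stood at 1.46 ± 0.21 with 17418 and 13845 in RPF against 6030 and 8449 in total RNA. Most ribosomal protein genes have processed pseudogenes in the mouse genome, so where reads that match several copies were placed bears on these values and is not known here. Of 24 other TOP messages, 8 were called higher and 5 lower (median 0.22, or -0.12 without centring), from Eif2s3x at -1.17 to Eif3k at 1.67.

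The window from 50 bases before to 50 bases after the RefSeq gene start (GRCm38.p6) was searched on the gene's own strand for the pyrimidine letters CTTTC. A match shows these letters in the window and does not place the tract or the first base of the message. The motif stood in 34 of the 62 ribosomal protein genes with a window, or 54.8%, against 11.8% of 8416 kept genes and 14.6% of 27025 genes with a window. Members with the motif had a median ratio of 0.09 and those without it 0.08. The following 30-base stretches, 5′ to 3′ with the motif in capitals, are from 3 ribosomal protein genes called lower and 3 called higher, since these letters stood in both. The first base of the motif, counted from 1 at the annotated start, lay at 10 in Rpl13a, 11 in Rpl12, 3 in Rpl28, 36 in Rpl6 and 8 in Rps26, and at -11, before the start, in Rps15a.
Rpl13a: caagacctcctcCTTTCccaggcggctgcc
Rpl12: ccgtcttttcggCTTTCggctcggaggagg
Rps15a: ccggcccactctCTTTCtgccatcttccct
Rpl28: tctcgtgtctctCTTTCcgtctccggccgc
Rpl6: cgctgccttagttctCTTTCccgtcttgca
Rps26: ccgccggatcctCTTTCgagtcttggctcc
They lie at chr7:45128719-45128748 (minus strand), chr2:32961710-32961739 (plus), chr7:118116141-118116170 (minus), chr7:4792955-4792984 (plus), chr5:121204521-121204550 (plus) and chr10:128626482-128626511 (minus), in that order. Rpl12 had a ratio of -1.07 ± 0.16 and Rps15a one of -0.67 ± 0.18, against 0.92 ± 0.16 for Rpl28 and 1.29 ± 0.17 for Rpl6.

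Replication-dependent histones, whose messages end in a stem-loop in place of a poly(A) tail and are made in S phase, formed the class with the highest median. Of 66 listed genes, 56 were kept, of which 51 were called higher (median 1.48), 47 of them by 2-fold or more, and the other 5 were not called. They took 3.10% and 2.34% of RPF reads and 1.03% and 1.29% of total RNA reads. Hist1h2ag had 8830 and 11357 in RPF and 1358 and 1580 in total RNA, a ratio of 3.11 ± 0.17, and Hist1h2bm had 8031 and 6605 in RPF and 1461 and 1304 in total RNA, a ratio of 2.74 ± 0.16. The ratios of WTex1 and WTex2 were 3.05 and 3.18 for Hist1h2ag and 2.81 and 2.67 for Hist1h2bm. The class medians differed between cultures, at 1.96 in WTex1 and 1.0 in WTex2, and 2 of the 5 genes whose ratio differed most between cultures were histone genes, Hist1h4j and Hist1h4a. The polyadenylated variants, made throughout the cell cycle, had 5 of 10 called higher and 1 lower (median 0.46), and 3 called higher without the WTex1 total RNA library. H2afz stood at 0.83 ± 0.19 and H3f3b, at -0.12 ± 0.20, was not called. Histone genes are near-identical copies of each other, the sources used here do not say how RNA was selected for the total RNA libraries, and the part of either in these values was not tested.

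DNA replication and cell cycle genes were called higher in 27 of 45 cases and lower in 2 (median 0.55), led by the mitotic kinase Plk1 at 1.79 ± 0.15 and the clamp-loader subunit Rfc4 at 1.55 ± 0.14. Of the hnRNP proteins, which bind nascent RNA, 15 of 28 were called higher and 2 lower (median 0.58), with Hnrnpd at 2.14 ± 0.20. The serine and arginine rich splicing factors were mostly not called, with 2 of 15 higher and 2 lower, and Srsf10 at -1.53 ± 0.18. Polycomb and DNA methylation genes had 5 of 24 called higher and 8 lower (median -0.00), from Tet3 at -2.04 ± 0.20 to Dnmt3l at 1.5.

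Cholesterol synthesis genes, controlled together by SREBP, were also divided, with 11 of 23 called higher and 4 lower (median 0.38), and 6 called higher without the WTex1 total RNA library. Insig1, which retains the SREBP escort protein, had 931 and 954 in RPF and 5264 and 5353 in total RNA, a ratio of -2.15 ± 0.14. Nsdhl, an enzyme of the late pathway, stood at 1.71 ± 0.15. Messages for selenoproteins, in which a UGA codon is read as selenocysteine, had 5 of 18 called higher and 4 lower (median 0.02), with Selt at -1.51 ± 0.15, and 2 or 3 called higher without the WTex1 total RNA or the WTex1 RPF library.

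Messages known for upstream reading frames or for the integrated stress response showed 6 of 21 called lower and 3 called higher (median -0.20), and 3 lower without the WTex1 total RNA library. The share called lower was near the 30.3% of all genes, and the share called higher was below the 29.5% of all genes. Uhmk1, a kinase, stood at -3.46 ± 0.22, Cebpg at -1.76 ± 0.16 with 344 and 317 in RPF against 1578 and 1278 in total RNA, and Ppp1r15b, which recruits the phosphatase of eIF2, at -1.31 ± 0.15. Atf4, the central factor of the response, was not called, at 0.36. The 3 called higher, Nars, Asns and Eprs, encode enzymes and are targets of Atf4, and the call of Eprs was lost without the WTex2 RPF library or without the WTex1 total RNA library.

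Collagens, laminins and integrins were called higher in 10 of 25 cases and lower in 1 (median 0.64). The class median was 0.61 in WTex1 and 0.63 in WTex2. The count called higher fell in some of the fits with a library left out and rose in others, so it depends on the libraries used. Of 15 fibroblast markers, listed to check for other cells, 11 were kept, of which 6 were called higher (median 0.86), 3 without either the WTex2 RPF or the WTex1 total RNA library, and the 11 took 0.09% and 0.12% of RPF reads and 0.04% and 0.07% of total RNA reads. Lum, Dcn, Postn and S100a4 fell short of the minimum, with Lum at 3.11 and 0 in RPF and 0.92 and 0 in total RNA. Col1a1 had 1911 and 5922 in RPF and 792 and 2729 in total RNA, and Acta2 had 928 and 2976 in RPF and 382 and 1356 in total RNA. Both were higher in WTex2 than in WTex1 in each assay, and the ratio of Col1a1 was 1.62 in WTex1 and 1.45 in WTex2. In the mutant cultures, total RNA of Col1a1 ran from 19.4 to 284, below both WT cultures. Of 15 endoderm, mesoderm and neural markers, 6 were kept, with 2 called higher and 1 lower.

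**Figure D4:**
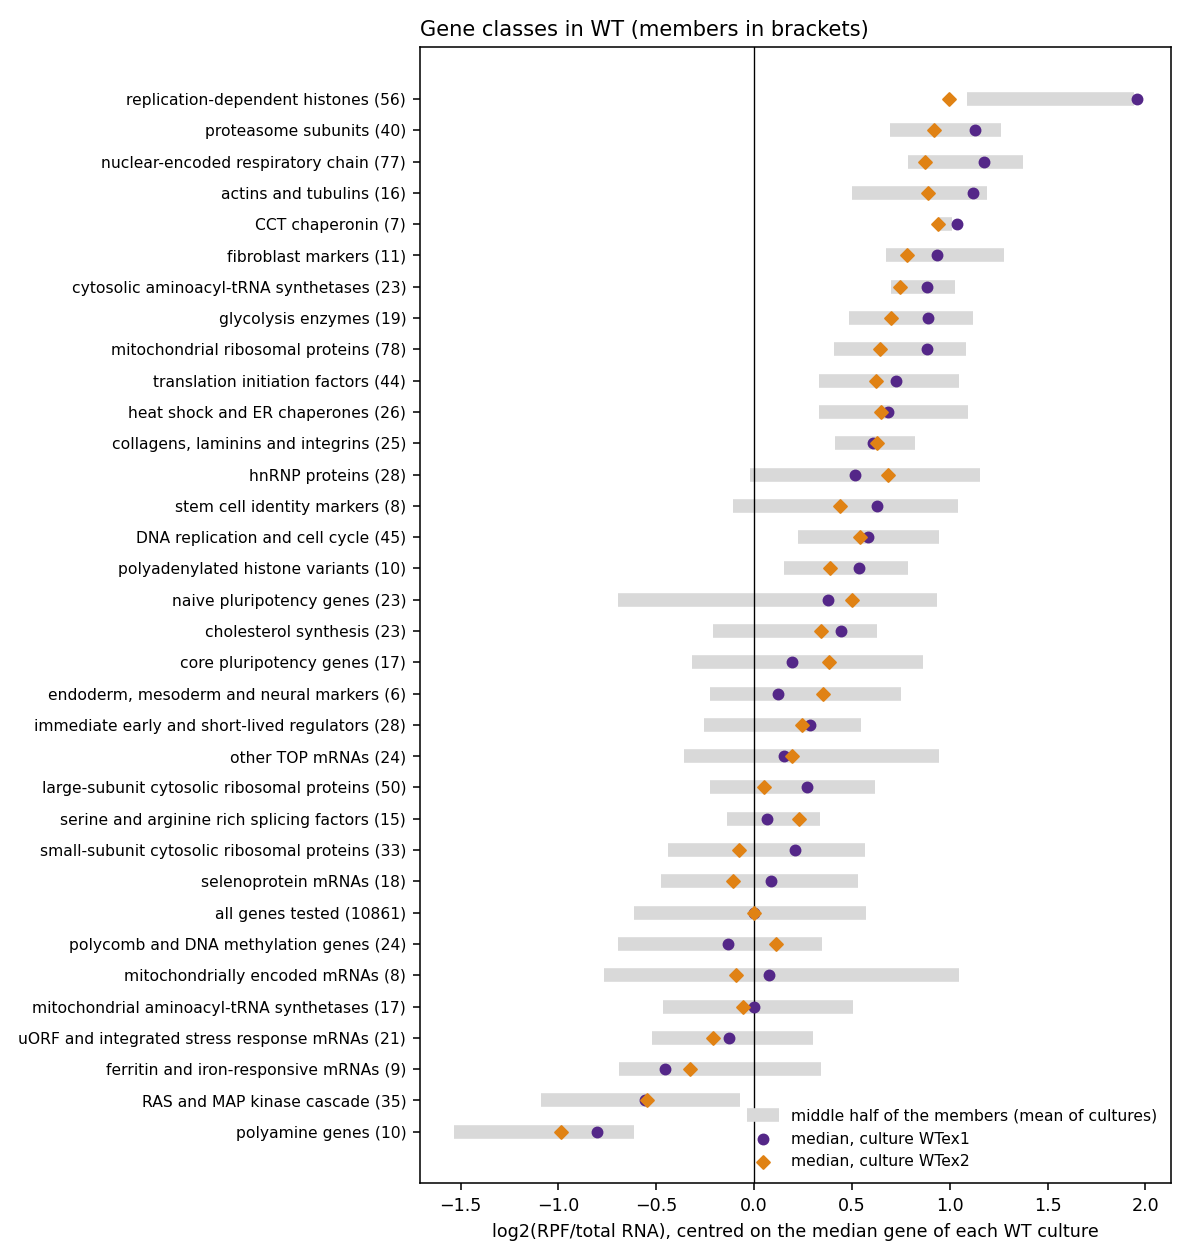
Median centred log2 ratio of RPF to total RNA of each gene class in WTex1 (circles) and WTex2 (diamonds), with grey bars from the 25th to the 75th percentile of the members' mean ratios and the number of members in brackets. Histones, proteasome and respiratory chain genes stand at the top and polyamine and RAS and MAP kinase genes at the bottom, with cytosolic ribosomal proteins near 0.

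Gene families grouped by symbol prefix, with at least 10 kept members, numbered 119. The lowest medians were those of Fbxl (F-box proteins of ubiquitin ligases, 9 of 13 called lower, median -1.17), Dennd (activators of Rab GTPases, 10 of 12, median -0.99) and Zdhhc (palmitoyl transferases, 13 of 19, median -0.99). The zinc finger families Zbtb and Zfp were lower, with 22 of 35 Zbtb genes (median -0.75) and 158 of 280 Zfp genes (median -0.55) called lower and 2 and 14 called higher. Smaller zinc finger families were mixed, with medians of -0.57 for Klf, -0.28 for Zscan, 0.04 for Zcchc and 0.06 for Zc. Behind the histones, the highest were Ndufb (10 of 10 called higher, median 1.27) and Psmb (9 of 10, median 1.11). The ratio also varied with the genomic span of the gene. The median ratio was 0.37 in the shortest and -0.33 in the longest of 5 equal groups of genes by span, with a Spearman rho of -0.256 over 10814 genes. Neither the length of the message nor its coding share was used, and the part of length in the class differences was not tested. Total RNA level, which shares its reads with the ratio, gave a rho of 0.0003, with medians of 0.05 in the lowest and 0.13 in the highest of 5 groups. The minimum in both assays left out 875 genes with enough RNA but too few footprints (median ratio -1.30). It left out 171 the other way (median 1.27). These values hold for the kept genes only, and the part of the minimum in them was not tested.

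Most kept genes encode proteins by RefSeq, 10790 in all. The 13 kept long non-coding RNAs had a median of -0.70, with 8 called lower and 2 higher. Snhg11 and Zfas1, which host small nucleolar RNAs, had ratios of -2.65 ± 0.20 and -1.53 ± 0.29. Zfas1 nevertheless had 1263 and 615 normalised reads in RPF, against 3139 and 3332 in total RNA. Genes outside the rule show where it ends. Padi4, at 50.03 normalised RPF reads on average, was just inside, and Ticam1, at 49.8, was just outside. A further 875 genes passed in total RNA but not in RPF, of which 819 are protein-coding and 544 lay more than 2-fold below the median gene, and 171 passed in RPF but not in total RNA. Among those 171, Svep1, an extracellular matrix protein, had 197 to 1988 in RPF of the mutant cultures and 322 and 3820 in RPF of WT, where its total RNA stood at 10.1 and 7.26. Whether these RPF reads come from the Svep1 message was not tested.

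The ratios of WT cells were largely shared by the other cultures, which the rule did not use. Over the same 10861 genes, the correlation of the WT mean ratio with that of single cultures was 0.900, 0.925 and 0.921 in Nat1+/- A7, B4 and C1 and 0.943, 0.936 and 0.914 in Nat1-/- B12, B2 and C3. Eif4g2, the gene disrupted, had 1089, 1114 and 922 normalised reads in RPF of the Nat1-/- lines B12, B2 and C3, 10261, 7608 and 7275 in the Nat1+/- lines, and 17666 and 13862 in WT. In total RNA it had 12249, 8795 and 5085 in Nat1-/-, 15335, 12092 and 10674 in Nat1+/- and 47932 and 26985 in WT, so that all mutant lines lay below WT in both assays. Ratios were compared with WT by limma's interaction of assay and genotype over 16 libraries. It called 0 genes (0.0%) in Nat1+/- and 1 gene (0.00921%) in Nat1-/-. At an unadjusted p under 0.05 there were 631 of the 10861 genes in Nat1+/- and 270 in Nat1-/-. A share of about 0.05 of genes without any difference would pass that threshold, so these counts are not read as differences. With the culture as a block, since both assays come from the same cultures, 245 genes (2.26%) differed in Nat1+/-, 148 higher (1.36%) and 97 lower (0.893%) than in WT, and 146 (1.34%) in Nat1-/-, 19 higher (0.175%) and 127 lower (1.17%). The block leaves each difference as it is and changes its standard error. Differences from WT were fitted on values that were not centred, while the ratios of single cultures below are centred. Over all genes the median difference from WT was 0.02 in Nat1+/- and 0.03 in Nat1-/-.

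The gene called without the block was Mark3, a kinase that phosphorylates microtubule-associated proteins, which is named here after its values were seen. It had 1159, 1031 and 1029 normalised reads in RPF of the Nat1-/- lines B12, B2 and C3, against 1739 and 1767 in WT, and 5398, 5245 and 5020 in total RNA of Nat1-/-, against 3853 and 4080 in WT. RPF values were thus lower and total RNA values higher in Nat1-/- than in WT, with no overlap in either assay. Its ratio was -1.88, -2.02 and -1.98 in Nat1-/- and -0.79 and -0.88 in WT, a difference of -1.11 ± 0.14 (limma adjusted p = 0.018, or 0.0013 with the block). The Nat1+/- lines stood at -0.85, -0.90 and -0.92. The call without the block was lost when WTex1, WTex2 or B2 was left out (adjusted p = 0.69, 0.78 and 0.47).

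The differences that follow are given with the culture as a block, and none was called without it. Of the 12 highest and 12 lowest genes, Ftl1 had the widest difference called. It had 3957, 1271 and 2066 normalised reads in RPF of Nat1+/- A7, B4 and C1, against 220 and 351 in WT, with 13957, 9681 and 13818 in total RNA of Nat1+/- and 8830 and 10801 in WT. The Nat1+/- and WT footprint values did not overlap, and the ratio was higher in Nat1+/- by 2.63 ± 0.55 (adjusted p = 0.045). In Nat1-/- it had 436, 540 and 1951 in RPF of B12, B2 and C3, a difference of 1.5 ± 0.55 from WT (adjusted p = 0.27). Fth1 differed by 1.71 ± 0.47 in Nat1+/- (adjusted p = 0.070). Atp6v0c was lower in Nat1+/-, at a difference of -1.74 ± 0.37 (adjusted p = 0.046), with 1024, 1031 and 1562 in RPF against 2908 and 3104 in WT. Eif4g2 was lower in Nat1-/-, at a difference of -1.78 ± 0.24 (adjusted p = 0.010). Wdr77, Klf5 and Trp53 were not called in either comparison.

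The place of cytosolic ribosomal proteins differed between cultures. The large-subunit median was -0.95, -0.78 and -0.74 in the Nat1+/- lines, 0.66, 0.15 and -0.41 in the Nat1-/- lines, and 0.27 and 0.05 in WT. With the block, 8 of 50 large-subunit and 6 of 33 small-subunit members were called lower in Nat1+/- than in WT, against 0.893% of all genes. This was not particular to ribosomal proteins. In the same fit, 6 of 24 other TOP messages and 5 of 44 initiation factors, lists that share members, were called lower and 0 higher. Without the block no member of these 4 classes was called. Mitochondrially encoded messages varied more, with medians of -0.70, 1.02 and 0.16 in the Nat1+/- lines, -1.02, -0.66 and -0.14 in the Nat1-/- lines, and 0.07 and -0.09 in WT. Respiratory chain medians lay between 0.79 and 1.32 in the mutant cultures, and polyamine medians between -1.10 and -0.91, against 1.17 and 0.87 for respiratory chain and -0.80 and -0.98 for polyamine genes in WT. The histone median was 0.92, 1.01 and 1.01 in Nat1+/-, 1.93, 1.15 and 1.17 in Nat1-/-, and 1.96 and 1.0 in WT. The highest medians of the histone and ribosomal protein classes fell in WTex1 and B12, the cultures with the deepest total RNA libraries (42.6 and 42.5 M reads, against 13.2 to 33.6 M in the others), and the part of the library in this was not tested.

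**Figure D5:**
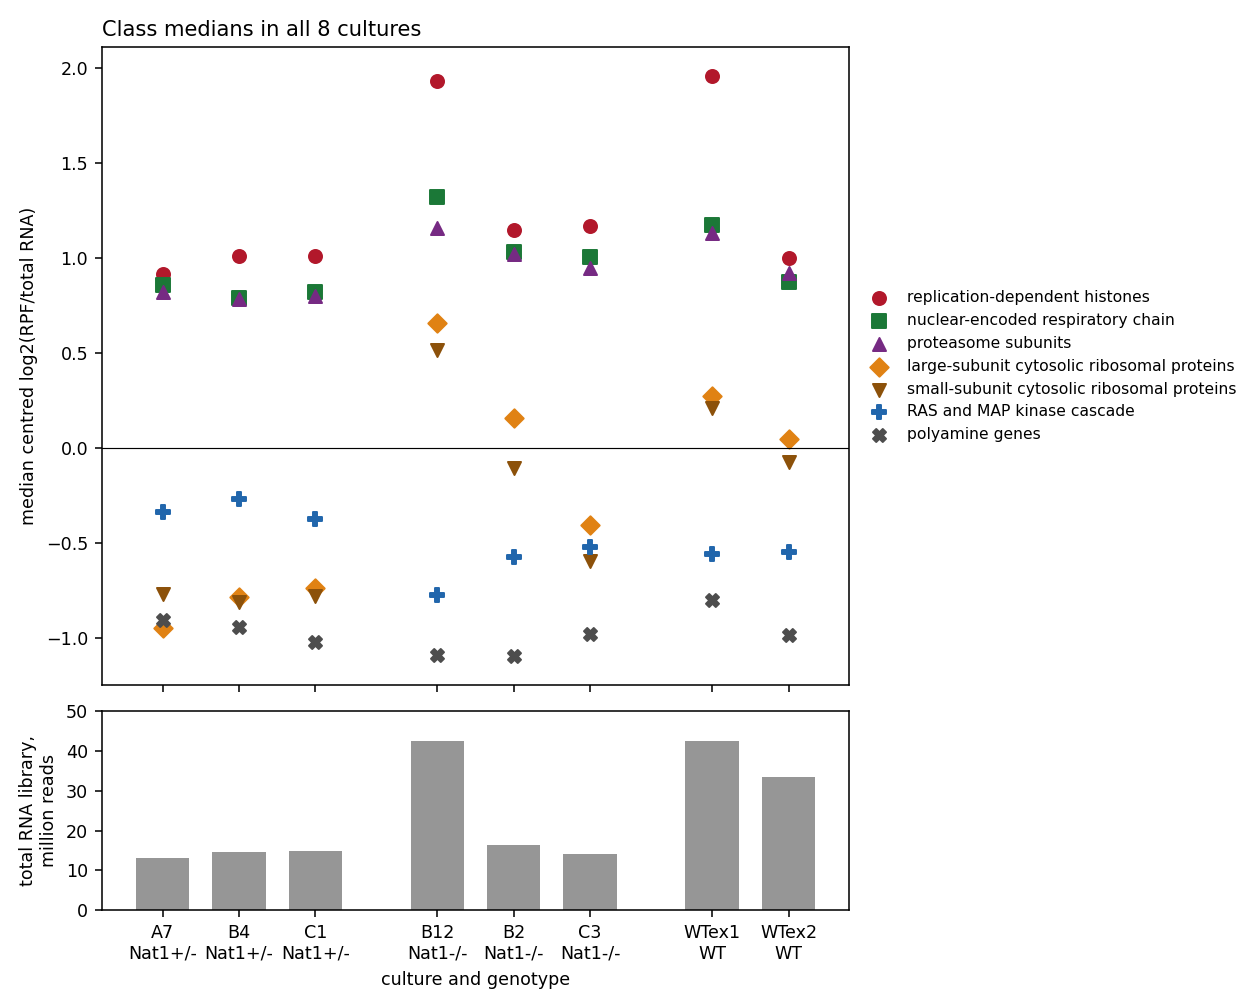
Top, median centred log2 ratio of RPF to total RNA of 7 gene classes in the Nat1+/-, Nat1-/- and WT cultures; bottom, reads of each culture's total RNA library in M. Histone, respiratory chain and proteasome medians stay above 0 in all 8 cultures and RAS and MAP kinase and polyamine medians below it, while ribosomal protein medians run from -0.95 in A7 to 0.66 in B12.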

How the data were processed

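Each culture gave an RPF and a total RNA library, prepared with Illumina's kit for ribosome profiling, per the labels' protocols. What was deposited is a signal: read counts that the authors divided by a DESeq2 size factor per library, per the submitters' processing notes, which also name HTSeq 0.6.1, TopHat2 2.1.0, Bowtie2 2.2.8, cutadapt 1.9.1 and bcl2fastq 2.17, with the builds GRCm38.p4 and mm10. Whole reads were recovered for 100% of values (tolerance 0.001), and the factors equalled median-of-ratios factors within each assay, so a shift common to all genes between assays would not appear. The counted feature (whole exons or coding sequence), strand, multi-mapping and footprint length are not given in the sources used here. RNA reads cover untranslated regions and footprints mostly do not, so the ratio was not corrected for the coding share.

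Genes with a mean of at least 50 in both WT assays were fitted in R 4.3.3 with limma 3.58.1 on log2(value + 1), with a mean-variance trend, over the 4 WT libraries, RPF minus total RNA, with each culture centred on its median; fold changes of low genes are understated by the pseudocount. Calls are two-sided at a Benjamini-Hochberg adjusted p under 0.05. With 2 libraries against 2, an exact permutation test cannot go below 0.33. Interactions used all 16 libraries and 6 group means, on values that were not centred. Alternatives included edgeR 4.0.16 and DESeq2 1.42.0 on recovered reads. In simulated data, 200 of these 10861 genes were changed and libraries were drawn without pairing by culture. There, the comparison of RPF with total RNA recovered 14.9% of 1.5-fold, 76.1% of 2-fold and 98.5% of 4-fold changes. In the real data 59.8% of genes were called, so these shares hold for the simulated setting and not for the reported calls. The same culture names in the labels pair the assays, and deviations of paired libraries correlated at 0.54 in WT and 0.48 to 0.86 in the mutant lines.

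Named genes are the 12 highest and 12 lowest called protein-coding genes (predicted names and listed histones passed over), the 3 highest and 3 lowest of each list, the 6 with the most footprints, the 5 that differ most between cultures and Eif4g2; the other genes named were chosen after their values were seen. Members and lists were chosen with earlier results of these data known. Gene types, overlaps and sequences are from RefSeq tables of GRCm38.p6. The names held 27 that look like dates, which are not printed.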

Additional observations from a re-analysis of the deposited data

Results flagged for a closer look

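Mark3 differed between groups in the comparison of ratios over all 16 libraries. Its log2 ratio of RPF to total RNA was lower in Nat1-/- than in WT, at a difference of -1.11 ± 0.14 (limma adjusted p = 0.018), with all 3 Nat1-/- cultures below both WT cultures. The call was lost when WTex1, WTex2 or B2 was left out.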

How the results depend on the processing

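The number of genes called stayed within 1.5 times of 6497 with edgeR, DESeq2, other pseudocounts, other minima, no trend and all 16 libraries sharing one spread (5273), and with any one WT library left out (4938 to 5869). The count called higher was 1813 without centring, 2075 with equal library sums and 1916 with no filter, against 3208. Leaving out a whole WT culture, with the lone sample of each assay assumed to vary like the other groups, gave 2758 to 3322 calls, 1234 to 1565 higher and 1524 to 1757 lower, from fewer samples. With the replicate block, the WT comparison gave 8002 calls, 4008 higher and 3994 lower, and the interactions gave 245 for Nat1+/- against 0 and 146 for Nat1-/- against 1; no called gene named lost its call under the block. With one culture left out, the interaction gave 0 to 6 calls for Nat1-/- and 0 for Nat1+/-. Of 221 named genes, 26 lost their call with all 16 libraries, 72 without WTex1 and 56 without WTex2, and 11 to 26 without one library. No result changed its direction while called. Without centring, 18 of 33 classes had a median above 0, against 26, an alternative chosen after seeing the data. Interactions without the block were also simulated, with 200 genes changed and no pairing by culture. There, 11.9% of 2-fold changes in Nat1+/- and 13.4% in Nat1-/- were recovered, and 77.3% and 84.8% of 4-fold changes. In that setting the fit missed most 2-fold changes.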

Other observations

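The genes with the most footprint reads, not corrected for length, were Hsp90ab1, Actb, Npm1, Ncl, Rack1 and Tubb5. Npm1, a nucleolar chaperone, had 37167, 43367 and 41707 normalised reads in RPF of Nat1+/- A7, B4 and C1, against 81041 and 80245 in WT. In total RNA it had 58833, 72758 and 58568 in Nat1+/- and 69773 and 68314 in WT. With the culture as a block its ratio was lower in Nat1+/- than in WT, at a difference of -0.86 ± 0.15 (limma adjusted p = 0.042), which was not called without the block, and within WT it was not called. The genes whose ratio differed most between WTex1 and WTex2 were Hist1h4j, Zfp109, Hist1h4a, Grcc10 and Zfpm1, and 52 genes in all differed by more than 1 on the log2 scale. Psg29, a pregnancy-specific glycoprotein gene, had 490 and 591 normalised reads in RPF of Nat1-/- B12 and B2 and at most 3.42 in the other mutant cultures, against 158 and 1414 in RPF of WT, where its total RNA stood at 2.76 and 4.23. Whether these RPF reads come from the Psg29 message was not tested.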
